A study of Mus musculus with 20 samples.

Results

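Gene expression in the endothelium of the kidney was compared between mice aged 24 months and mice aged 3 months. The comparison took every Ensembl gene row of the kidney count table, 46078 genes, which is the whole gene set of the series. Of these, 22888 had at least 1 count in a kidney library and 16242 had enough counts to be tested. The study sequenced endothelium of kidney, heart and brain at both ages, and 7 of its 20 sequencing runs are from kidney. Both kidney groups were wild type C57BL/6 mice that, by their labels, differed in age alone, and the labels record no treatment and no altered gene in either group. The young group (3 months) had 3 libraries. The old group (24 months) had 3 libraries, of which library 1 was sequenced in 2 runs that were summed. Kidneys were digested to single cells with collagenase, and the sorted cells carried CD31 (endothelium, Pecam1) and lacked CD45 (leukocytes, Ptprc) and GP38 (fibroblasts and lymphatic vessels, Pdpn). The labels do not state that the libraries of an age came from separate animals, so the p-values measure the spread between libraries, which may be technical.

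Kidney endothelium is made of several beds. Glomerular capillaries filter the blood, peritubular capillaries take back what the tubules reabsorb, and the vasa recta run beside the loops of Henle in the medulla, all fed by arterioles that hold the renin cells. Endothelial cells also show antigen: class I molecules present peptides from inside the cell, while class II molecules, which professional antigen-presenting cells carry and which endothelium can be induced to carry, present peptides to helper T cells. Selectins and immunoglobulin-like adhesion proteins on the same cells let leukocytes roll on and stick to the vessel wall.

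The libraries held 38189089 to 80960468 counts in genes. Gene levels are in CPM, which divides each count by its library's TMM-adjusted total, and stand always in the order of libraries 1, 2 and 3 of an age, with fold changes as log2 of old over young with their standard error (SE). The median correlation between libraries across genes, on the log2 CPM scale and with genes that are no independent replicates, was 0.912 over 6 pairs of libraries of the same age and 0.906 over 9 pairs of different age. Endothelial markers were abundant in every library (Pecam1 1268 to 1933 CPM, Tie1 1121 to 1887 CPM, Cdh5 145 to 233 CPM). The genes of the sort's excluded proteins were low, Ptprc at 1.09 to 11.95 CPM and Pdpn at 0.600 to 5.30 CPM. Tubule RNA was abundant: Umod, the gene of the urinary protein made by the loop of Henle, was at 2345 to 7515 CPM. In young libraries 12 loop and distal tubule genes summed to 13310 to 16030 CPM, beside 14200 to 15710 CPM for 23 pan-endothelial genes. In old libraries these sums were 6333 to 12390 CPM and 15780 to 21030 CPM. The share of counts in genes of the mitochondrial genome was 2.01% to 2.30% in the young libraries and 0.693% to 1.09% in the old ones. In such bulk libraries, fewer cells of a type and less RNA per cell cannot be told apart.

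In old kidney endothelium 2 genes rose and 0 fell past an adjusted p of 0.05 (edgeR quasi-likelihood F test, Benjamini-Hochberg over 16242 genes), which is 0.0123% and 0% of the genes tested. Both take part in the meeting of vessel wall and leukocytes. H2-Ab1 encodes the beta chain of the class II molecule I-A, and Sele encodes E-selectin, the endothelial protein on which leukocytes roll. At an adjusted p of 0.10 the number was 7 genes (0.0431%), of which 5 are class II genes, and at an unadjusted p of 0.05 it was 1459 genes (8.98%). The ages did not overlap, meaning that each old library lay above or below each young one, in 1286 genes that were higher with age (7.92%) and 1238 that were lower (7.62%). Both shares are the comparison for each such count in a gene list below. Among genes with a mean of at least 1 CPM, 216 non-overlapping genes were over 2-fold higher and 284 over 2-fold lower. DESeq2 (Wald test) called 204 genes higher and 165 lower, among them 6 class II genes.

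H2-Ab1 (ENSMUSG00000073421, GRCm38/mm10 chr17:34257689-34269419, plus strand) was at 75.9, 85.5 and 82.9 CPM in young and at 265.2, 295.1 and 236.3 CPM in old libraries. The old libraries were all well above the young ones, and the young ones were close to each other. The mean rose from 81.5 ± 5.0 to 265.5 ± 29.4 CPM (SD, n = 3 each; log2 1.71, SE 0.14; edgeR adjusted p 0.0405). Sele (ENSMUSG00000026582, chr1:164048234-164057677, plus strand) was at 11.9, 14.96 and 14.8 CPM in young and at 57.5, 51.8 and 56.8 CPM in old libraries. Here too the 2 ages were far apart and each age was tight. The mean rose from 13.9 ± 1.70 to 55.4 ± 3.11 CPM (SD, n = 3 each; log2 2.00, SE 0.17; edgeR adjusted p 0.0405). Leaving out each of the 6 libraries in turn ended both calls, with edgeR adjusted p 0.0853 to 0.316 and log2 values of 1.62 to 1.78 for H2-Ab1 and of 1.90 to 2.06 for Sele. The libraries of the same number shared a sequencing lane, apart from the second run of the old library 1, which was in the lane of the libraries 3. Within the numbers 1, 2 and 3, H2-Ab1 was 3.50-, 3.45- and 2.85-fold higher in the old library and Sele 4.83-, 3.46- and 3.84-fold higher, while a fit with the number as a term called 0 genes (H2-Ab1 log2 1.70, edgeR adjusted p 0.190; Sele log2 2.00, adjusted p 0.253).

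**Figure D1:**
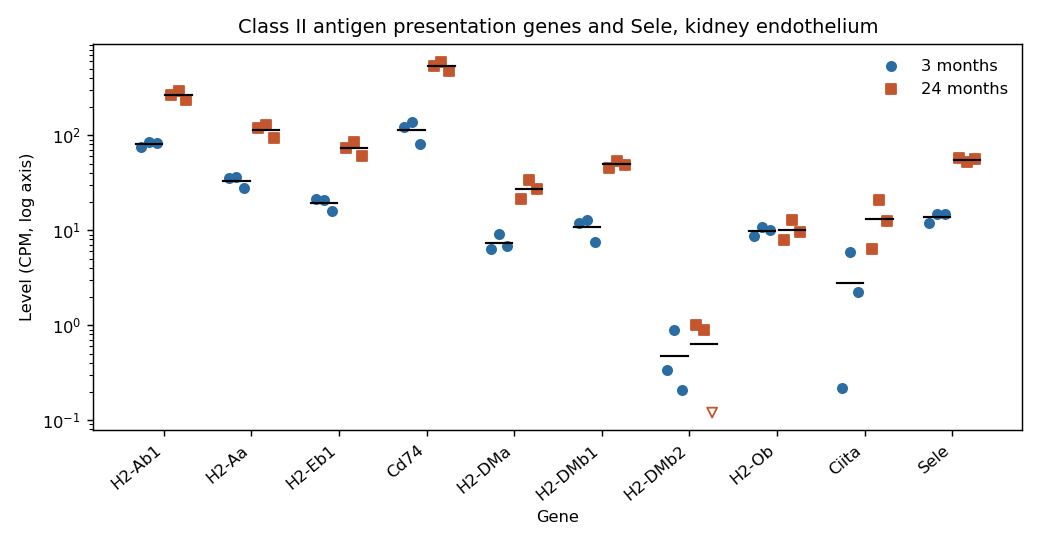
Level in CPM (log axis) of the 9 tested class II genes and of Sele in each kidney library, 3 young (circles) and 3 old (squares), with the mean of each age as a line and a library at 0 as an open triangle at the lower edge. For H2-Ab1 the young libraries sit between 75.9 and 85.5 CPM and the old ones between 236.3 and 295.1 CPM, while for H2-Ob and H2-DMb2 the ages overlap.

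Other genes of the class II pathway were higher in old libraries as well, though H2-Ab1 alone passed the test. Of 11 class II genes, all had counts and 9 could be tested. Ages did not overlap in 7 of these 9 (77.8%, beside 7.92% of all genes tested), all higher in old libraries, and their median log2 fold change was 1.88, beside 0.0017 over all genes tested. The list was written with earlier results of these data known. Summed over the list, the level was 282.1, 320.2 and 234.8 CPM in young and 1079, 1229 and 960.1 CPM in old libraries.

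Among the class II alpha and beta chain genes, H2-Aa, the alpha chain partner of H2-Ab1, was at 35.1, 36.5 and 27.5 CPM in young and 118.9, 128.9 and 94.1 CPM in old libraries (log2 1.79, SE 0.19, edgeR adjusted p 0.0664). H2-Eb1, a beta chain gene of the I-E type, was at 21.5, 20.9 and 15.9 CPM and then at 74.0, 84.0 and 60.5 CPM (log2 1.91, SE 0.20, edgeR adjusted p 0.0664). In both genes the lowest old library was far above the highest young one, yet neither passed the threshold. The RNA of H2-Eb1 does not show that an I-E molecule was made or reached the cell surface in these mice. The further beta chain gene H2-Eb2 was below the level needed for a test, with 0 counts in young libraries and 25 counts in old ones, all of them in library 2.

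Cd74 encodes the invariant chain, which holds class II molecules until they reach the compartment where peptides are loaded. It was at 122.2, 137.6 and 81.6 CPM in young and 538.8, 597.7 and 471.3 CPM in old libraries (log2 2.24, SE 0.22; edgeR adjusted p 0.0664). Peptide loading itself needs H2-DM, whose alpha chain gene H2-DMa was at 6.33, 9.03 and 6.79 CPM and then at 21.1, 33.5 and 27.1 CPM (log2 1.88, SE 0.26; edgeR adjusted p 0.148). Its beta chain gene H2-DMb1 was at 11.95, 12.8 and 7.48 CPM and then at 45.0, 53.8 and 48.9 CPM (log2 2.20, SE 0.24; edgeR adjusted p 0.0680). Both H2-DM genes and Cd74 thus showed the pattern of H2-Aa and H2-Eb1, without passing the test. H2-DMb2, a neighbouring and similar copy of H2-DMb1, was at 0 to 1.004 CPM with overlapping ages, and reads that fit both copies leave their separate levels uncertain.

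Ages overlapped in H2-Ob, which encodes the beta chain of H2-DO, a restraint on H2-DM. It was at 8.66, 10.9 and 10.1 CPM in young and 7.98, 12.95 and 9.56 CPM in old libraries (log2 0.04, SE 0.27; edgeR adjusted p 0.989). H2-Oa, its alpha chain gene, had 5 counts in young and 49 in old libraries and was not tested. Ciita, the transcription activator that switches class II genes on, was at 0.219, 5.93 and 2.22 CPM in young and 6.35, 21.0 and 12.4 CPM in old libraries (log2 2.25, SE 0.98; edgeR adjusted p 0.569). The lowest old library lay just above the highest young one, and the spread among the libraries of each age was wide.

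Of the class II genes, 9 lie within chr17:34092340-34341412 (GRCm38), and Ciita and Cd74 lie on other chromosomes. RefSeq promoter windows (GRCm38.p6, 250 bases before to 50 after the start) were held for 8 of the 11 genes, and no window for H2-Ab1, Cd74 or Ciita. The Y box, one of the conserved elements of class II promoters, was searched as CTGATTGG on both strands, and 4.1% of 32851 promoter windows hold it. It was found in the windows of H2-Aa, H2-Eb1, H2-Eb2 and H2-Oa, and not in those of H2-DMa, H2-DMb1, H2-DMb2 and H2-Ob. The stretches of H2-Aa, H2-Eb1, H2-Eb2 and H2-Oa are given because they hold the Y box. It begins 51, 62, 103 and 46 bases before the start, in that order. H2-Aa and H2-Eb1 were higher in old libraries, while H2-Eb2 and H2-Oa had too few counts for a test. H2-DMa and H2-DMb1 were higher as well (log2 1.88 and 2.20) without the Y box in their windows. The part of the Y box in the age difference was not tested. Capitals mark the Y box, and in H2-Aa also the cyclic AMP response element TGACGTCA (74 bases before the start; in 1.79% of all windows).
H2-Aa, chr17:34287827-34287937, minus strand: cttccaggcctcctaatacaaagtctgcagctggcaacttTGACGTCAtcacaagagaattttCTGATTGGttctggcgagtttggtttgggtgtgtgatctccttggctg
H2-Eb1, chr17:34305765-34305852, plus strand: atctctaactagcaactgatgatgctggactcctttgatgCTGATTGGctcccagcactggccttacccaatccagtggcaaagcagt
H2-Eb2, chr17:34325532-34325619, plus strand: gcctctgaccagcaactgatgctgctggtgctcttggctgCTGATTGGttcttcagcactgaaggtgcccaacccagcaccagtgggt
H2-Oa, chr17:34092293-34092380, plus strand: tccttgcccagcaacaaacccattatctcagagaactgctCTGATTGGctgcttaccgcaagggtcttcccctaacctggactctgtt
The interferon regulatory factor core AANNGAAA (23.9% of all windows) was found in the windows of H2-Aa, H2-Eb2, H2-DMa and H2-Oa, and the STAT core TTCNNNGAA (8.3% of all windows) in that of H2-DMb2. The NF-kB core GGANNNTCC (8.62% of all windows), a motif added after the data were examined, was found in the window of H2-DMb1 alone among these, 172 and 139 bases before the start. A match of letters is a description and does not show that a factor binds there.

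Class II genes are also highly expressed by macrophages, dendritic cells and B cells, so the markers of these cells are given beside them. Of 20 macrophage and dendritic cell genes 14 were tested, 0 passed and ages did not overlap in 1 that was higher (7.14%, beside 7.92% of all genes). It was C1qa, a complement gene of macrophages (136 counts in young and 598 in old libraries). All 14 had a log2 fold change above 0, with a median of 0.51, and the list summed to 37.2 to 58.2 CPM in young and 51.5 to 90.7 CPM in old libraries. The defining macrophage genes Adgre1 (0 to 2.68 CPM in young, 1.15 to 2.55 CPM in old) and Csf1r (4.67 to 10.7 CPM and 4.69 to 10.97 CPM) overlapped between the ages, as did Flt3 of dendritic cells, at 0 in 2 young and 1 old library. Itgam, an integrin gene of myeloid cells, had 0 counts in young libraries and 208 in old ones, 0 of them in library 3. Of 10 genes shared by all leukocytes, ages overlapped in each, and the list summed to 87.3 to 128.9 CPM and 82.3 to 130.9 CPM. Of 11 tested B and plasma cell genes 0 passed and ages did not overlap in 1 that was lower (9.09%, beside 7.62% of all genes). It was Ms4a1, which encodes the B cell protein CD20 and had 204 counts in young and 122 in old libraries. That list had a median log2 fold change of -0.36, which turned above 0 (up to 0.35) when any 1 young library was left out, and summed to 315.5 to 490.4 CPM in young and 324.0 to 476.2 CPM in old libraries. The part of such cells in the class II difference was not tested.

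Class I genes, which most cells express, had smaller differences. Of 20 tested class I and peptide loading genes 0 passed, ages did not overlap in 4 that were higher (20%) and 0 that were lower, and the median log2 fold change was 0.21. H2-Q7, a non-classical class I gene, was at 81.5, 98.2 and 87.1 CPM in young and 137.0, 134.7 and 137.6 CPM in old libraries (log2 0.62, SE 0.13; edgeR adjusted p 0.260), though reads shared with its near-identical neighbour H2-Q6 make its level uncertain. The classical gene H2-D1 was at 2865 ± 120 and 3430 ± 249 CPM (SD, n = 3 each). H2-K1, the other classical gene, was at 1254 ± 122 and 1461 ± 83.0 CPM (SD, n = 3 each).

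Genes induced by interferons had a median close to that of all genes. Of 42 tested, 0 passed, ages did not overlap in 1 that was higher (2.38%) and 4 that were lower (9.52%), beside 7.92% and 7.62% of all genes, and the median was -0.09. The antiviral gene Ifit1 was at 188.2, 174.6 and 198.3 CPM in young and 169.1, 121.3 and 131.3 CPM in old libraries. Irf7, a transcription factor gene of the type I interferon response, was at 256.5, 247.7 and 262.1 CPM and then at 222.1, 184.6 and 223.2 CPM. Both were thus slightly lower in old libraries, and Isg15, a ubiquitin-like interferon target, overlapped. An exception in the other direction was Ifi207, a DNA-sensor family gene outside that list, at 7.79, 10.8 and 9.56 CPM and then at 51.0, 46.8 and 33.0 CPM (log2 2.22, SE 0.24; edgeR adjusted p 0.0677).

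**Figure D2:**
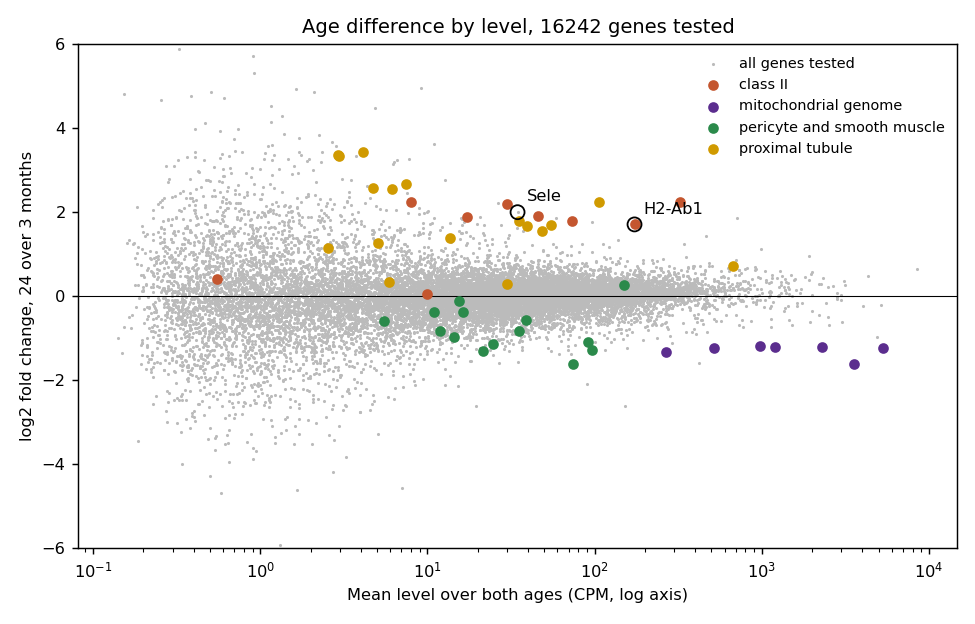
log2 fold change (24 over 3 months) against mean level in CPM (log axis) for the 16242 genes tested, with members of 4 lists in colour and H2-Ab1 and Sele ringed. 49 genes lie beyond the limits of 6. The ringed genes stand at 1.71 and 2.00, and the 7 tested genes of the mitochondrial genome lie together below the axis.

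Adhesion molecules and chemokines were the second group with a gene past the threshold. Of 24 tested members 1 passed (Sele), and ages did not overlap in 9 that were higher (37.5%, beside 7.92% of all genes) and 0 that were lower, with a median log2 fold change of 0.43. Among the receptors for leukocytes, Selp, the gene of P-selectin, was at 14.04, 10.5 and 9.17 CPM in young and 44.6, 22.2 and 28.4 CPM in old libraries (2.83-fold, log2 SE 0.31; edgeR adjusted p 0.258). Vcam1 and Icam1 encode the adhesion proteins that hold rolling leukocytes fast. Vcam1 was at 234.4, 145.3 and 158.9 CPM and then at 500.8, 243.2 and 254.8 CPM (log2 0.89, SE 0.32; edgeR adjusted p 0.469). Icam1 was at 529.0, 658.3 and 646.0 CPM and then at 761.2, 893.3 and 1017 CPM (log2 0.54, SE 0.15; edgeR adjusted p 0.377).

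The old library 1 was the highest of its age for Selp and Vcam1, and for Vcam1 the other old libraries lay just above the highest young one. Among the chemokines, Ccl2, which draws in monocytes, was at 0.292, 0.259 and 0.808 CPM in young and 4.21, 2.81 and 5.44 CPM in old libraries (log2 3.19, SE 0.72; edgeR adjusted p 0.281). Cx3cl1, which encodes the membrane-bound chemokine fractalkine, was at 388.5, 406.8 and 356.5 CPM and then at 805.6, 561.1 and 523.6 CPM (log2 0.71, SE 0.18; edgeR adjusted p 0.334). Tnfrsf1a, the gene of the main receptor for tumour necrosis factor, was at 240.2 ± 10.7 and 358.6 ± 91.4 CPM (SD, n = 3 each). Cd14, a co-receptor gene for bacterial lipopolysaccharide that lies outside the list, was at 16.2, 14.8 and 18.3 CPM and then at 40.2, 44.1 and 51.3 CPM (log2 1.46, SE 0.18; edgeR adjusted p 0.117).

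The Sele promoter is shown because E-selectin is a textbook target of NF-kB, and its window (RefSeq, GRCm38.p6) holds the letters GGANNNTCC, in capitals, 145 bases before the start; they overlap a STAT core TTCNNNGAA that begins 140 bases before it.
Sele, chr1:164048049-164048137, plus strand: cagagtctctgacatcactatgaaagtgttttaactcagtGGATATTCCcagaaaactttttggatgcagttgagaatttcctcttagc

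Genes of clotting and fibrinolysis held no gene past the threshold. Of 16 tested, ages did not overlap in 7 that were higher (43.8%, beside 7.92% of all genes) and 1 that was lower (6.25%, beside 7.62%), and the median log2 fold change was 0.36. Serpine2, which encodes protease nexin-1, an inhibitor of thrombin and plasminogen activators, was at 304.6, 208.6 and 239.8 CPM in young and 792.5, 661.4 and 567.2 CPM in old libraries (log2 1.43, SE 0.19; edgeR adjusted p 0.148). Plat, the gene of tissue plasminogen activator and one of the genes by which glomerular endothelium is known, was at 1456, 1332 and 1106 CPM and then at 3005, 2585 and 1988 CPM (log2 0.96, SE 0.18; edgeR adjusted p 0.221). An inhibitor and an activator of the same system were thus both higher in each old library. Plaur, the urokinase receptor gene, was at 143.1 ± 35.8 and 248.4 ± 21.9 CPM, and F2r, the thrombin receptor gene, at 692.7 ± 41.04 and 1126 ± 383 CPM (SD, n = 3 each). Vwf, which encodes the platelet-binding von Willebrand factor, overlapped, at 108.4, 65.6 and 37.7 CPM in young and 86.8, 83.0 and 78.5 CPM in old libraries.

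Genes of endothelial identity had slightly higher levels in old libraries. Of 23 tested pan-endothelial genes 0 passed, ages did not overlap in 9 that were higher (39.1%) and 0 that were lower, and the median log2 fold change was 0.34. The list summed to 15710, 14860 and 14200 CPM in young and 21030, 20340 and 15780 CPM in old libraries, so that the old library 3 was near the young ones. Pecam1 was at 1478, 1294 and 1268 CPM and then at 1847, 1933 and 1483 CPM (log2 0.38, SE 0.14; edgeR adjusted p 0.469). Eng, which encodes the TGF-beta co-receptor endoglin, was at 1022 ± 46.9 and 1545 ± 254 CPM (SD, n = 3 each). Kdr, the main receptor gene for vascular endothelial growth factor, and Nos3, the gene of endothelial nitric oxide synthase, overlapped between the ages. When libraries were scaled to the pan-endothelial sum instead of by TMM, the median of all genes was -0.33, the class II median was 1.55, and 0 genes were called (H2-Ab1 log2 1.36, edgeR adjusted p 0.173; Sele log2 1.66, adjusted p 0.201).

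The markers of the kidney's own beds did not share 1 direction. Plvap, which encodes the diaphragm protein of fenestrated peritubular capillaries, was at 6280, 6474 and 7353 CPM in young and 11790, 10850 and 8551 CPM in old libraries (log2 0.63, SE 0.14; edgeR adjusted p 0.280). Cd36, a fatty acid uptake gene of the same bed, was at 436.2, 511.1 and 551.8 CPM and then at 1116, 942.5 and 658.7 CPM (log2 0.86, SE 0.21; edgeR adjusted p 0.303). Slc14a1, the urea transporter gene of the descending vasa recta, went the other way, at 870.5, 617.9 and 413.7 CPM and then at 162.6, 200.2 and 270.4 CPM (log2 -1.59, SE 0.30; edgeR adjusted p 0.227). In each of these 3 genes the ages did not overlap, but the spread among libraries was wide. Over the 9 genes of the peritubular and vasa recta list, ages did not overlap in 2 that were higher (22.2%, beside 7.92% of all genes). They did not overlap in 1 that was lower (11.1%, beside 7.62%).

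Of the 10 genes of the glomerular list, ages did not overlap in 1 that was higher, Plat (10%, beside 7.92% of all genes). They did not overlap in 1 that was lower, Lpl (10%, beside 7.62%). Lpl encodes lipoprotein lipase, which frees fatty acids from blood lipids at the capillary wall, and had the lowest p of all genes that were lower with age. It was at 311.7, 317.1 and 315.3 CPM in young and 175.4, 137.5 and 156.9 CPM in old libraries (log2 -1.01, SE 0.13; edgeR adjusted p 0.148). The young libraries were nearly equal, and the highest old one was far below them. Ehd3, a trafficking gene used as a marker of glomerular endothelium, overlapped, at 1030, 918.1 and 972.2 CPM and then at 920.3, 1055 and 688.4 CPM.

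Among arterial genes, 0 of 16 passed, and ages did not overlap in 2 that were lower (12.5%, beside 7.62% of all genes) and 0 that were higher. Eln, which encodes elastin of artery walls, was at 285.6, 236.2 and 135.9 CPM in young and 69.7, 115.0 and 92.5 CPM in old libraries. Hey1, a target of Notch signalling in arterial endothelium, was at 45.8, 33.2 and 44.2 CPM and then at 11.3, 32.6 and 25.2 CPM. Of 13 Notch pathway genes, ages did not overlap in 3 that were lower (23.1%, beside 7.62% of all genes) and 0 that were higher. Yet 7 of the 13 had a log2 fold change above 0, and the median was 0.06. The list summed to 1621 to 1769 CPM in young and 1662 to 1979 CPM in old libraries. The 3 lower genes were Hey1, Heyl, a further Notch target, and Notch3, the receptor of smooth muscle cells and pericytes. Heyl was at 22.3 ± 3.77 and 8.28 ± 2.65 CPM, and Notch3 at 30.6 ± 5.13 and 12.3 ± 4.68 CPM (SD, n = 3 each). Of 8 venous genes, ages did not overlap in 3 that were higher (37.5%), which include Selp and Vcam1 named above.

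Genes of vessel tone were mixed. Of 18 tested, ages did not overlap in 5 that were higher (27.8%) and 2 that were lower (11.1%), and 0 passed. Ednrb, the endothelin receptor gene of endothelium, was at 779.5, 480.6 and 616.1 CPM in young and 2087, 1053 and 926.2 CPM in old libraries (log2 1.12, SE 0.33; edgeR adjusted p 0.384). Ece1, the gene of the enzyme that activates endothelin, was at 831.0 ± 70.1 and 1265 ± 281 CPM (SD, n = 3 each). Gucy1a1, a subunit gene of the nitric oxide receptor of smooth muscle, was at 18.2, 16.6 and 26.1 CPM and then at 8.28, 13.7 and 13.98 CPM.

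Basement membrane and matrix genes leaned lower by their median, but not by their sum. The list summed to 9939 to 14200 CPM in young and 10890 to 14830 CPM in old libraries. Of 31 tested, 0 passed, ages did not overlap in 7 that were lower (22.6%, beside 7.62% of all genes) and 1 that was higher (3.23%), and the median log2 fold change was -0.17. Of the 7, 3 encode the collagen IV chains of the mature glomerular membrane. Whether their RNA came from endothelium or from other kidney cells in these libraries was not tested. Col4a3 was at 92.1, 105.2 and 118.5 CPM in young and 44.9, 61.5 and 75.5 CPM in old libraries, Col4a5 at 42.5 ± 7.59 and 20.6 ± 2.52 CPM, and Col4a4 at 48.2 ± 20.7 and 24.6 ± 8.35 CPM (SD, n = 3 each). The laminin chain genes Lamb1 and Lamb2 lay in opposite directions, Lamb1 at 143.2 ± 4.23 and 103.3 ± 13.4 CPM and Lamb2 at 832.4 ± 27.3 and 1113 ± 194 CPM (SD, n = 3 each).

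**Figure D3:**
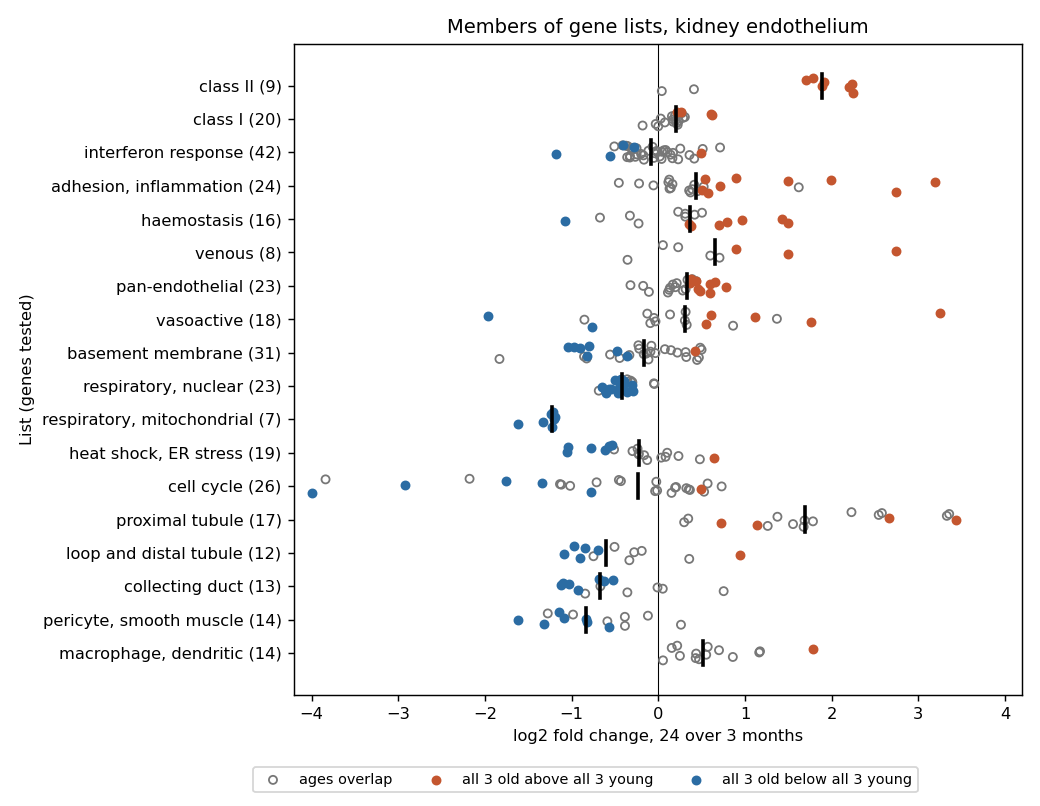
log2 fold change (24 over 3 months) of every tested member of 18 lists, with the number tested in brackets and the median as a black line; filled points are genes whose ages did not overlap, and 1 member is drawn at the limit of 4. Class II members with filled points lie from 1.71 upward, and the 7 genes of the mitochondrial genome are all filled on the lower side.

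The respiratory chain was lower in old libraries in both its parts. The mitochondrial genome encodes 13 of its subunits, of which 7 were tested. Ages did not overlap in all 7, each lower with age, with a median log2 fold change of -1.23 (0 passed; lowest adjusted p 0.167). mt-Cytb, the cytochrome b gene of complex III, was at 6532, 7975 and 7752 CPM in young and 3692, 2357 and 3436 CPM in old libraries (log2 -1.23, SE 0.18). mt-Nd1, of complex I, was at 2933, 3600 and 3137 CPM and then at 1652, 1040 and 1492 CPM (log2 -1.21, SE 0.19). mt-Co1, of complex IV, was the most variable, at 849.1, 1605 and 2792 CPM in old libraries against 5388, 4865 and 5828 CPM in young ones.

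All 23 tested respiratory chain genes of the nucleus had a log2 fold change below 0, ages did not overlap in 16 of them (69.6%, beside 7.62% of all genes), and the median was -0.42. Cox6c, a complex IV subunit gene, was at 99.7, 107.3 and 92.5 CPM in young and 55.4, 64.3 and 75.9 CPM in old libraries (log2 -0.61, SE 0.16; edgeR adjusted p 0.340). Cyc1, the cytochrome c1 gene of complex III, was at 324.7, 307.0 and 304.0 CPM and then at 212.4, 211.5 and 274.3 CPM. The differences of the nuclear genes were smaller than those of the mitochondrial genome, and the old library 3 was closest to the young ones in both genes. Tubule cells are rich in mitochondria, and of the tubule markers given below those of the loop and the collecting duct were lower in old libraries while those of the proximal tubule were higher; the part of these cells in the difference was not tested.

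Among heat shock and endoplasmic reticulum stress genes 0 of 19 passed, and ages did not overlap in 6 that were lower (31.6%) and 1 that was higher (5.26%), with a median of -0.23. Hspe1, the gene of the small mitochondrial chaperonin, was at 35.0, 17.2 and 27.3 CPM in young and 11.5, 12.8 and 14.02 CPM in old libraries. Hsp90aa1, the gene of the inducible cytosolic chaperone, was at 208.9 ± 31.5 and 136.1 ± 22.4 CPM (SD, n = 3 each). Without the young library 1 the median of the list was -0.018. Immediate early genes, which tissue digestion also induces, overlapped in all 24.

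RNA of other kidney cells was present in these libraries, and its level differed between the ages for several of them. Loop and distal tubule genes did not overlap in 5 of 12 that were lower (41.7%) and 1 that was higher, and the list summed to 13310 to 16030 CPM in young and 6333 to 12390 CPM in old libraries. Umod was at 5573, 6416 and 7515 CPM in young and 2730, 2345 and 4871 CPM in old libraries (log2 -0.97, SE 0.27; edgeR adjusted p 0.377). The exception was Slc12a3, the thiazide-sensitive cotransporter gene of the distal tubule, at 294.5, 203.9 and 222.9 CPM and then at 303.5, 432.9 and 646.5 CPM. Collecting duct genes did not overlap in 7 of 13 that were lower (53.8%) and 0 that were higher. Of these, Aqp2, the water channel gene of principal cells, was at 1781, 2328 and 1516 CPM in young and 990.9, 1128 and 1389 CPM in old libraries.

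Proximal tubule genes lay on the other side, with a log2 fold change above 0 in all 17 and a median of 1.69, and ages did not overlap in 4, all higher (23.5%, beside 7.92% of all genes). The list summed to 617.4 to 750.6 CPM in young and 1008 to 1618 CPM in old libraries. Slc34a1, the phosphate cotransporter gene of that segment, was at 39.6, 33.4 and 39.5 CPM in young and 245.9, 24.3 and 256.7 CPM in old libraries. The old library 2 lay below the young ones, and the other old ones far above. Without that library Slc34a1 was the 1 gene called (log2 2.75, edgeR adjusted p 0.0264). Slc6a19, an amino acid transporter gene of the same segment that is among the 10 higher genes of lowest p, was at 1.22, 1.66 and 1.57 CPM and then at 13.99, 8.12 and 20.3 CPM (log2 3.25, SE 0.42; edgeR adjusted p 0.139). It is lowest in the same old library.

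Levels of renin cell, pericyte and smooth muscle genes were lower in old libraries, with 0 genes past the threshold. Ren1, the renin gene, was at 203.1, 98.1 and 135.1 CPM in young and 20.04, 19.2 and 63.2 CPM in old libraries (log2 -2.09, SE 0.52; edgeR adjusted p 0.312). Akr1b7, an aldo-keto reductase gene of renin cells, was at 4.79, 5.87 and 9.17 CPM and then at 0.953, 0.867 and 2.06 CPM. Both genes of the renin cell list thus had ages that did not overlap, and the old library 3 held the most of each among the old ones. Of 14 pericyte and smooth muscle genes 0 passed, ages did not overlap in 7 that were lower (50%) and 0 that were higher, and the median log2 fold change was -0.83.

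Myh11, the smooth muscle myosin gene, was at 103.8, 108.3 and 126.3 CPM in young and 36.01, 25.3 and 48.9 CPM in old libraries (log2 -1.62, SE 0.25; edgeR adjusted p 0.189). Pdgfrb, the growth factor receptor gene of pericytes, was at 35.5, 39.4 and 27.4 CPM and then at 21.2, 8.17 and 16.9 CPM. The list summed to 653.2 to 811.8 CPM in young and 362.8 to 520.7 CPM in old libraries, and the same libraries were lower in the Notch genes Notch3 and Heyl and in the arterial gene Eln, whose origin in the endothelium was not tested. Fibroblast genes summed to 24.2 to 29.2 CPM and 9.04 to 19.3 CPM, with Col1a2, a fibrillar collagen gene, at 1696 and 115 counts and Pdgfra, a receptor gene of fibroblasts, at 1 and 324 counts in young and old libraries.

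**Figure D4:**
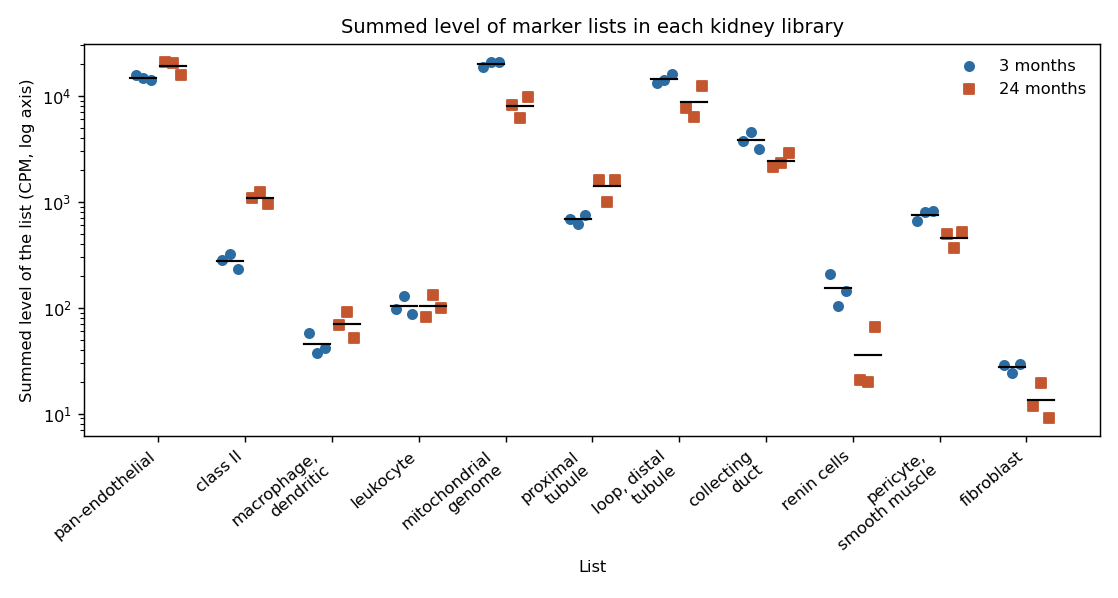
Summed level in CPM (log axis) of 11 marker lists in each kidney library, 3 young (circles) and 3 old (squares), with the mean of each age as a line. The class II sum is 234.8 to 320.2 CPM in young and 960.1 to 1229 CPM in old libraries, the leukocyte sums overlap, and the sums of loop, collecting duct, renin and smooth muscle lists are lower in old libraries.

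Among the remaining genes of lowest p, Fmo1, which encodes a flavin-containing monooxygenase that oxidises drugs, was at 69.8, 84.5 and 69.2 CPM in young and 173.1, 172.9 and 157.9 CPM in old libraries (log2 1.17, SE 0.14; edgeR adjusted p 0.101). Of the 25 tested genes of antioxidant and drug-metabolising enzymes, to which it belongs, 0 passed and ages did not overlap in 4 that were higher (16%, beside 7.92% of all genes) and 1 that was lower (4%, beside 7.62%). Myo5c, an unconventional myosin gene of epithelia, was at 32.1, 21.1 and 27.9 CPM and then at 8.53, 8.90 and 10.4 CPM (log2 -1.55, SE 0.23; edgeR adjusted p 0.167). Egflam, the gene of the matrix protein pikachurin, was at 8.13, 11.7 and 11.6 CPM and then at 2.19, 1.84 and 2.83 CPM (log2 -2.19, SE 0.34; edgeR adjusted p 0.196). In each of these the ages were well apart although none passed.

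Tnfrsf19, a gene of the tumour necrosis factor receptor family, was at 21.8 ± 5.32 and 7.30 ± 0.914 CPM, and Olfr558, an olfactory receptor gene, at 17.3 ± 3.44 and 5.81 ± 0.912 CPM (SD, n = 3 each). A pair of genes had counts in each young library and 0 in old ones. Ntm, which encodes the adhesion protein neurotrimin, had 422 counts in young libraries, 4.55, 2.30 and 3.37 CPM, and was at least 182-fold lower in old ones with 3 counts over the old group taken as the floor. Col28a1, a collagen gene, had 258 counts, 2.63, 1.68 and 1.96 CPM, and was at least 111-fold lower; such bounds cover counting error only. Cdkn1a, the cell cycle inhibitor gene often used as a sign of senescence, overlapped, at 538.4, 437.3 and 478.6 CPM in young and 492.2, 421.6 and 702.3 CPM in old libraries.

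Age effects in kidney were set against those of heart and brain endothelium, sorted alike from mice of the same ages, by testing the difference of the effects in 1 fit of all 18 libraries (CPM and log2 values in these paragraphs come from that fit). Of 18369 genes, 0 had a higher age effect in kidney than in heart (0%) and 1 a lower one (0.00544%). This was Lepr, the leptin receptor gene, which was at 75.6, 59.6 and 96.1 CPM in young kidney and 116.3, 115.2 and 69.1 CPM in old kidney, and in heart at 0.0814, 0.0250 and 0.0755 CPM and then at 2.51, 4.39 and 3.66 CPM (difference of log2 effects -5.35, SE 0.53; edgeR adjusted p 0.000927). Ages overlapped in kidney, where Lepr was abundant at both ages, and were far apart in heart. The next 4 genes by p, Spock2, Gpr160, Pth1r and Ntm, did not pass (adjusted p 0.0607 each). Pth1r, the parathyroid hormone receptor gene, had log2 effects of -0.32 in kidney and 2.14 in heart.

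Against brain, 6 genes had a higher age effect in kidney (0.0327%) and 3 a lower one (0.0163%). With the replicate number as a block, 0 genes passed against heart and 0 against brain. Serpine2 was at 240.5 ± 44.8 and 639.2 ± 104.7 CPM in young and old kidney and at 112.1 ± 19.0 and 51.1 ± 7.74 CPM in young and old brain (SD, n = 3 each; difference of log2 effects 2.54, SE 0.29; edgeR adjusted p 0.00434). In both organs the ages did not overlap, and the directions were opposite. H2-Q7 was at 77.6, 95.7 and 82.8 CPM in young and 129.9, 126.7 and 132.1 CPM in old kidney, and in brain at 7.61, 9.87 and 9.27 CPM and then at 63.1, 57.4 and 53.2 CPM (difference -2.10, SE 0.25; edgeR adjusted p 0.00434). Here the direction was shared and the effect was larger in brain. Serpine2 was added to the named genes after its values were seen. The other 7 genes past the threshold had 0 to 2 counts in brain at one of the ages, except Prr5, which had 868 and 107 counts.

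For the genes that lead in kidney no difference between organs was detected. H2-Ab1 had log2 effects of 1.69 (SE 0.25) in kidney, 1.39 (SE 0.25) in heart and 1.29 (SE 0.26) in brain, and its level in young libraries was 78.2, 26.1 and 4.52 CPM in the 3 organs. The differences were 0.30 (SE 0.35; edgeR adjusted p 0.977) against heart and 0.40 (SE 0.35; adjusted p 1) against brain. Cd74 had effects of 2.22, 1.10 and 0.76, with differences of 1.12 (SE 0.71; edgeR adjusted p 0.803) and 1.46 (SE 0.72; adjusted p 0.808). Sele had effects of 1.98 in kidney, -0.21 in heart and 0.76 in brain, and its SE in this fit was 0.76 in kidney, so that the differences of 2.19 (SE 1.06; edgeR adjusted p 0.708) and 1.22 (SE 1.05; adjusted p 1) did not pass. The mitochondrial gene mt-Cytb had effects of -1.25 in kidney, -0.09 in heart and 0.31 in brain, with differences of -1.15 (SE 0.46; edgeR adjusted p 0.657) and -1.56 (SE 0.47; adjusted p 0.634). A p that misses the threshold does not show that the organs age alike.

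**Figure D5:**
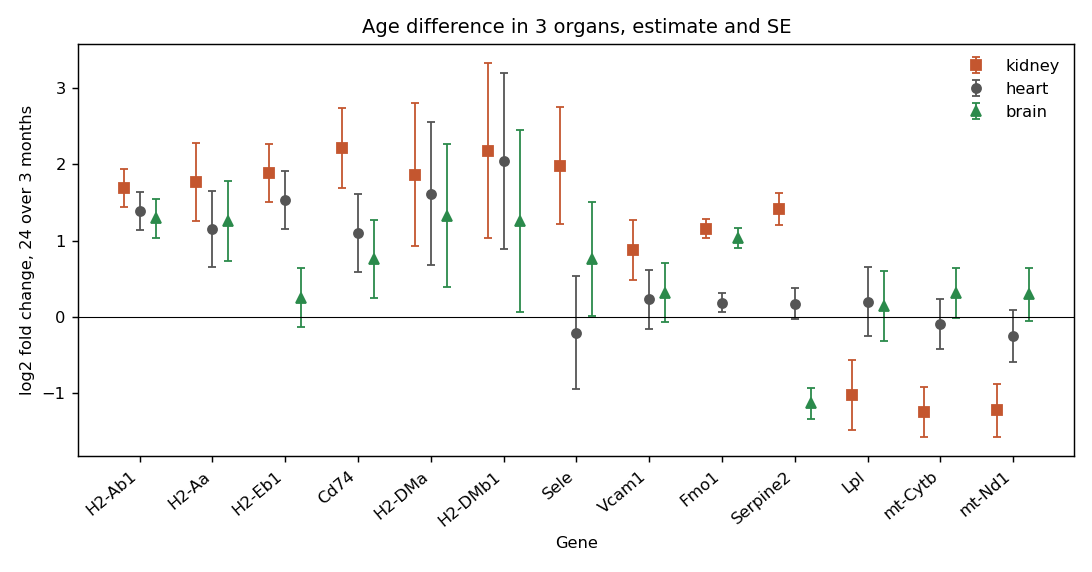
log2 fold change (24 over 3 months) with its SE for 13 genes in kidney (squares), heart (circles) and brain (triangles), from 1 fit of all 18 libraries with 3 libraries per organ and age. H2-Ab1 stands at 1.69, 1.39 and 1.29 with SEs that overlap, while Serpine2 stands at 1.41 in kidney and -1.13 in brain.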

How the data were processed

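Bulk RNA sequencing of sorted endothelium gave raw read counts per Ensembl gene, 1 deposited table per organ with a column per run and no normalization. Per the labels, cDNA was made with SmartSeq V4 chemistry and libraries with an Ovation protocol. The tools named in the submitters' processing notes are TopHat2 and HTSeq, and the builds GRCm38 and mm10; versions, annotation and strand setting are not given in the sources used here, so reads of a gene and of an antisense partner cannot be told apart. The table's 5 summary lines were left out. In kidney, the line for alignments that were not unique held 21.2% to 24.6% of a library's total over genes and summary lines. Its share relative to the counts in genes alone is thus higher.

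Symbols came from GENCODE M21 (GRCm38), for 45143 of 46078 genes. Titles and descriptions disagree on which old kidney library was run again; the descriptions were followed. That pair of runs had a chi-square per degree of freedom of 1.066 over genes with at least 20 counts, against 72.4 to 205 for 20 other pairs, so it was summed and counted as 1 library. Of heart, 1 run labelled 4 months in its age field and 3 months in its title was kept at 3 months.

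Kidney libraries were fitted alone with edgeR 4.0.16 in R 4.3.3 (filterByExpr, minimum count 10; TMM; quasi-likelihood F test; Benjamini-Hochberg, 0.05), and all 6 groups together for differences between organs. DESeq2 1.42.0 was an alternative. Gene lists are described by counts and medians, without a test. Members of lists, the lists themselves and the tests were chosen with earlier results of these data known. Genes were named by rule: those past the threshold, filled to 10 per direction by lowest p among genes with non-overlapping ages and at least 1 CPM, without predicted, immunoglobulin and ribosomal protein genes; every class II gene; up to 6 genes of lowest p of each list discussed, with its defining genes; a fixed set of endothelial and kidney markers; and the 5 largest differences between organs per direction. Counting limits the precision of low genes, with 3 counts over a group as the floor of a bound.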

Additional observations from a re-analysis of the deposited data

Results flagged for a closer look

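The age effects of 10 genes differed between kidney and another organ by the test of the difference itself (edgeR, adjusted p below 0.05, 18 libraries). With the replicate number as a block, 0 of these differences passed. Against heart this was Lepr (difference of log2 effects, kidney minus heart, -5.35), which had 11 counts in young heart and 453 in old heart beside 9997 and 17375 in kidney. Against brain, the best counted genes were Serpine2 (2.54) and H2-Q7 (-2.10), described above, and Prr5, a signalling subunit gene of mTOR complex 2 (3.50). The others had 0 to 2 counts in brain at one age, so the fitted size depends on the handling of low counts and is no bound. They were Tmigd1 (7.67; 294 counts in young and 2 in old brain), Chst1 (9.92; 215 and 0), Scamp5 (7.58; 522 and 2), Pidd1 (-10.7; 0 and 363), Wdr35 (-7.79; 1 and 316) and Lrrc36 (15.7; 121 and 0 in brain, 0 and 53 in kidney). In Tmigd1, Chst1, Scamp5, Prr5, Pidd1 and Wdr35 the kidney ages overlapped. Single outlying values were not looked for in groups of 3 libraries.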

How the results depend on the processing

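With DESeq2 size factors, with upper quartile scaling, with the first run of the repeated library alone and without the genes of the mitochondrial genome (an alternative chosen after the data were examined), H2-Ab1 and Sele were the 2 genes called. Called genes numbered 7 higher with no filter on low counts and 7 higher with a minimum count of 50, where H2-Aa, H2-Eb1, Cd74, H2-DMb1 and Ifi207 passed as well, and 204 higher and 165 lower with DESeq2. The fit of all 6 groups called 3 higher (H2-Ab1, Fmo1, Serpine2) and 2 lower (Egflam, Ntm), but not Sele (adjusted p 0.673). With the replicate number as a block 0 genes were called higher and 0 lower, H2-DMb2 had a log2 of -0.5226, and 0 genes passed for the difference from heart and 0 for that from brain. The deviations of same-numbered libraries correlated by 0.090, 0.025 and 0.017, and those of libraries with different numbers by -0.089 to 0.058. All of these are low, though 0.090 was the highest of all pairs. They do not settle whether the numbers pair the libraries. DESeq2 called 195 differences from heart and 193 from brain. Scaling to the pan-endothelial sum, chosen after the data were examined, moved the median of all genes to -0.33, left 0 genes called higher, gave a class II median of 1.552, and changed the sign of 9 of 32 list medians.

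Leaving out 1 library at a time, 0 to 1 genes were called higher (Slc34a1, without old library 2). List medians spanned 1.708 to 2.014 for class II, -0.0404 to 0.246 for glomerular genes, -0.1276 to 0.1136 for Notch, 0.3243 to 0.5036 for haemostasis, -0.5579 to -0.0219 for the cell cycle, -0.3641 to -0.01835 for heat shock, -0.9126 to -0.3853 for the loop and distal tubule, -0.8293 to -0.4695 for the collecting duct, -0.06273 to 0.3022 for podocytes, -2.877 to -1.97 for renin cells, -0.3594 to 0.3491 for B and plasma cells and -1.552 to 0.1646 for fibroblasts. Of 91 named genes 10 changed sign under at least 1 alternative, all with overlapping ages. Scaling to the pan-endothelial sum was left out of this count, except for H2-Ab1 and Sele. With 1 library left out, their log2 values spanned -0.3609 to 0.8987 for Adgre1, -0.08929 to 0.3027 for Cdkn1a, -0.1025 to 0.513 for Csf1r, -0.2728 to 0.01601 for Ehd3, -0.2623 to 8.427 for Flt3, -0.1066 to 1.212 for H2-DMb2, -0.1696 to 0.1812 for H2-Ob, -0.07042 to 1.55 for Pdpn, -1.038 to 0.08112 for Ptprc and -0.06543 to 0.6767 for Vwf. The causes were not tested. With 3 libraries per age, a p that misses the threshold does not show that a gene was alike at both ages.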

Other observations

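Clock genes were among the groups not described above. Of 21 tested genes of the circadian clock and of the glucocorticoid response 0 passed, ages did not overlap in 5 that were higher (23.8%) and 0 that were lower, and the median log2 fold change was 0.32. Cry1, a repressor gene of the clock, was at 26.9, 22.9 and 20.5 CPM in young and 38.9, 47.8 and 43.9 CPM in old libraries (log2 0.89, SE 0.18; edgeR adjusted p 0.258). Nr1d2, which encodes a nuclear receptor of the clock, was at 199.6 ± 35.3 and 280.7 ± 19.9 CPM (SD, n = 3 each). The hour of tissue collection is not given in the labels, and its part in this was not tested.

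Genes of the glycocalyx, the sugar coat of the endothelial surface, went both ways. Of 15 tested 0 passed, and ages did not overlap in 2 that were higher and 2 that were lower (13.3% each). Podxl, the gene of the sialomucin podocalyxin, was at 1242, 1337 and 1131 CPM in young and 1882, 2026 and 1372 CPM in old libraries. Gpc1, which encodes the heparan sulphate carrier glypican-1, was at 24.6, 38.4 and 29.4 CPM and then at 9.69, 17.2 and 14.3 CPM (log2 -1.17, SE 0.28; edgeR adjusted p 0.301).

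Genes linked to senescence had a median of -0.0069 over 18 tested, with ages that did not overlap in 4 that were higher (22.2%) and 1 that was lower (5.56%). Igfbp7, a secreted gene of that list, was at 958.5, 1010 and 745.5 CPM in young and 447.5, 508.7 and 723.1 CPM in old libraries. Of 26 proliferation genes ages did not overlap in 5 that were lower (19.2%) and 1 that was higher (3.85%), with a median of -0.23 that became -0.56 without the old library 3. The list summed to 403.0 to 479.6 CPM in young and 456.7 to 498.8 CPM in old libraries, in the other direction from its median.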
